A study of Mus musculus with 7 samples.

Results

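The Schlafen genes are a family of interferon-responsive genes that lie side by side on mouse chromosome 11. This section follows 7 of them (Slfn1, Slfn2, Slfn3, Slfn4, Slfn5, Slfn8 and Slfn9) in hearts of mice with a genetic myocarditis and of controls. They were chosen by name, as the rows of the expression table whose gene name equals one of these symbols, and make up 7 of its 23420 gene rows. RNA of the cardiac ventricle was sequenced from 7 mice, aged 3 to 6 weeks and given no treatment. The 4 controls carried the genotype Ctla4+/+;Pdcd1-/- and the 3 mice with ICI-myocarditis (a model of the heart inflammation caused by immune-checkpoint inhibitors, ICI) carried Ctla4+/-;Pdcd1-/-. Both groups therefore lacked Pdcd1, which encodes the checkpoint receptor PD-1, and they differed in 1 allele of Ctla4, which encodes the checkpoint receptor CTLA-4. Inhibition was genetic and lifelong in this model, no checkpoint antibody was given, and there was no group with intact Pdcd1. The study title places the work in the search for treatments of ICI-myocarditis. The comparison asks how the diseased heart differs from the control heart.

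Schlafen proteins share a core with a ribonuclease-like fold that acts on transfer RNA, and they restrain proliferation and viral replication. The mouse family is usually divided by length into short members (Slfn1, Slfn2), intermediate members (Slfn3, Slfn4) and long members (Slfn5, Slfn8, Slfn9), of which the long ones add a helicase-like region. Type I interferon induces several of them in immune cells and other cells, and Slfn2 is best known for keeping T cells and monocytes quiescent. In the GENCODE annotation (GRCm38) the longest coding sequences held 337 codons in Slfn1 and 378 in Slfn2, 640 in Slfn3 and 602 in Slfn4, and 884, 910 and 910 in Slfn5, Slfn8 and Slfn9, so the annotated lengths follow that division. The coding sequences of Slfn8 and Slfn9 were 92.7% identical over their aligned bases, as were those of Slfn3 and Slfn4, against 72.3% for Slfn1 and Slfn2 and 64.4% for Slfn5 and Slfn8.

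Promoter sequence is shown first, for members that were higher together and for 1 that was not. The windows are the 250 bases before the RefSeq start site (GRCm38.p6), written 5′ to 3′ on the strand of the gene, with capitals marking a match to a searched motif. An ISRE core (GAAANNGAAA on either strand, the element bound by interferon-activated STAT and IRF factors) was found in Slfn8, beginning 48 bases before the start site, and in Slfn9, beginning 45 bases before it.
Slfn8, chr11:83020811-83021060, minus strand: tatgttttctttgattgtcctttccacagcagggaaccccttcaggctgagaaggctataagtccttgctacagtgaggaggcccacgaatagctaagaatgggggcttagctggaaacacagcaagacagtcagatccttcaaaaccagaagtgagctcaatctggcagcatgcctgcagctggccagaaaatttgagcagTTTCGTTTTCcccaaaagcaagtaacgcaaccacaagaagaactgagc
Slfn9, chr11:82991831-82992080, minus strand: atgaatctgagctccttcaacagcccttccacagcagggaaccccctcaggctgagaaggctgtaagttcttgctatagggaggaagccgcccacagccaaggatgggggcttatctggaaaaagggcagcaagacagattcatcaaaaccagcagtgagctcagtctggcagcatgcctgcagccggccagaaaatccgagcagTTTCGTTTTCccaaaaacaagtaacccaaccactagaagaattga

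These windows were identical at 82.4% of their positions in a global alignment, whereas the other 14 pairs among the 6 windows compared ranged from 47.2% to 56.8%. The ISRE core was also found 155 bases before the Slfn5 start site used by RefSeq. That window overlaps annotated GENCODE exons of Slfn5 and so does not lie upstream of the whole gene. RefSeq also lists another start site of Slfn8, with the same core 136 bases before it. The window of that site, not shown, likewise overlaps annotated exons of Slfn8. The window of Slfn14, a further long gene of the cluster, held none of the 3 motifs searched. The ISRE core was present in 2.98% of the 32851 mouse promoter windows of this length. The short and intermediate members had no ISRE core in this window. They carried instead an ETS core (ACTTCCTG on either strand, an element of the kind bound by ETS factors), a motif that was chosen after these sequences had been seen. It began 74 bases before the start site of Slfn1, 55 before that of Slfn2, 73 before that of Slfn4, and 60 and 42 before that of Slfn3, and occurred in 2.69% of all windows.
Slfn1, chr11:83116570-83116819, plus strand: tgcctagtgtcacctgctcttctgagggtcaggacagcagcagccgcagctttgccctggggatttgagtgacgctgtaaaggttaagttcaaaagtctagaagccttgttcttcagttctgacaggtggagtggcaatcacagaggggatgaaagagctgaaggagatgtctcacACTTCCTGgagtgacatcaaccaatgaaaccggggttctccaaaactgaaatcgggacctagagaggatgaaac
Slfn2, chr11:83064862-83065111, plus strand: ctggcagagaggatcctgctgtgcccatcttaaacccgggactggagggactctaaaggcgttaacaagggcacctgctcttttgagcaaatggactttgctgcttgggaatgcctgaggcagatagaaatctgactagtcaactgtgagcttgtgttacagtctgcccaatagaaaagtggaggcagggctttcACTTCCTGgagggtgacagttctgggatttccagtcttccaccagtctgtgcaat
Slfn3, chr11:83191080-83191329, plus strand: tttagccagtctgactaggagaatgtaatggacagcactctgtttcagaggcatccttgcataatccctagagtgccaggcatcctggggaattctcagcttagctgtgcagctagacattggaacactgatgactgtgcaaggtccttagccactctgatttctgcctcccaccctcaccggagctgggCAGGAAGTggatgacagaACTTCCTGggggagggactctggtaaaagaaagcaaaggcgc

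Slfn1 and Slfn2 are shown because their RNA was higher in ICI-myocarditis, and Slfn3 because the same core stands in front of a gene whose RNA was not. A GAS core (TTCNNNGAA, the element bound by STAT dimers, in 7.02% of all windows) was found in none of the 7 members' windows. The matches overlap no other searched motif, and they are descriptions of letters, not of binding.

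The libraries held 20931730 to 39037176 reads assigned to genes, the fewest in control 2 and the most in ICI-myocarditis 2. All 8 cardiomyocyte markers were present in every library. Control 2 stood apart from the other controls in its immune transcripts. Ptprc, which encodes the pan-leukocyte protein CD45, had 2874 normalized counts in control 2 against 483, 1108 and 518 in controls 1, 3 and 4, and 8012, 6879 and 10493 in the diseased hearts. The summed level of 9 T cell markers was 1882 in control 2, 188 to 317 in the other controls and 7560 to 11522 in ICI-myocarditis. Ctla4 itself was measured at 29.2, 113, 69.2 and 41.3 in the controls and at 282, 251 and 373 in the heterozygous hearts. Pdcd1 had 9.07, 244, 3.35 and 2.50 in the controls and 1481, 1096 and 1340 in ICI-myocarditis. Which part of either gene was removed is not given in the sources used here, so gene-level counts do not check the genotypes. In limma with Benjamini-Hochberg adjustment over 15258 genes, 2397 genes passed an adjusted p of 0.05 (15.7%), of which 1787 were higher in ICI-myocarditis (11.7%). That total was 1508 without control 1, 1298 without control 3, 1396 without ICI-myocarditis 2 and 986 without ICI-myocarditis 3. In 2634 genes (17.3%) every diseased heart lay above every control.

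Of the 7 Schlafen genes, 4 were higher in ICI-myocarditis hearts (Slfn1, Slfn2, Slfn8 and Slfn9), none was lower, and 3 did not pass the test (Slfn3, Slfn4 and Slfn5). All 7 had passed the filter on low values. The share of all genes tested that were higher was 11.7%, and the median log2 fold change was 2.03 over the 7 members against -0.02 over all genes. The same 4 members were those in which every diseased heart lay above every control, a separation seen in 17.3% of all genes tested. The division cut across the family: 2 short and 2 long members were higher, while 1 long and both intermediate members did not pass. In bulk RNA, more cells that carry a transcript and more of the transcript per cell cannot be told apart.

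**Figure D1:**
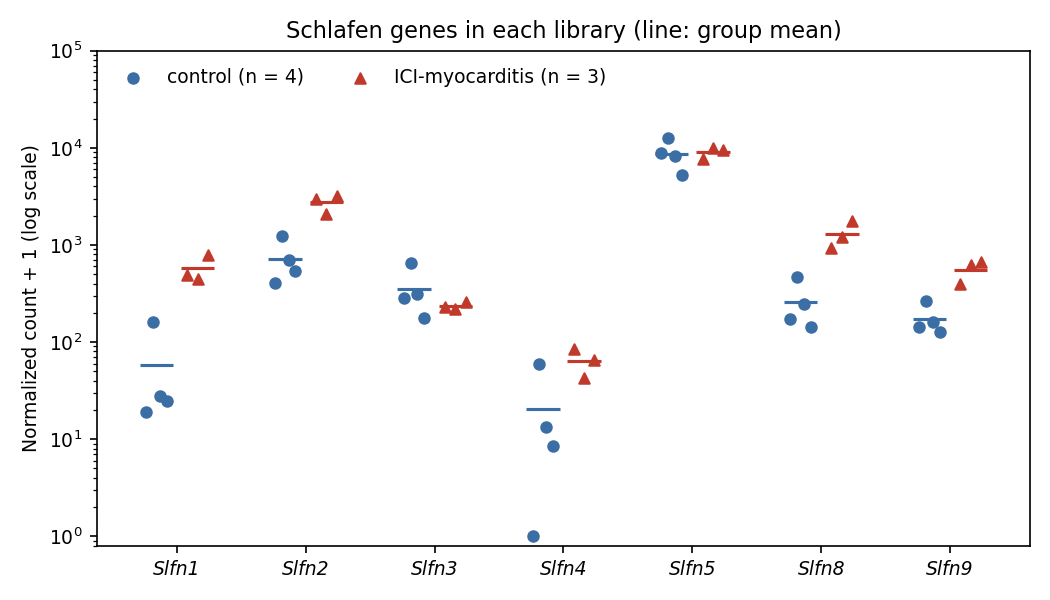
Normalized count plus 1 (log axis) of each Schlafen gene in the 4 control hearts (circles) and 3 ICI-myocarditis hearts (triangles), with lines at the group means. The groups are separate for Slfn1, Slfn2, Slfn8 and Slfn9 and overlap for Slfn3, Slfn4 and Slfn5, and control 2 is the highest control for each gene.

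Slfn1, a short member that restrains thymocyte growth when overexpressed, had the largest fold change of the family. It had 18.1, 162, 26.8 and 23.8 normalized counts in controls 1 to 4 and 487, 449 and 782 in ICI-myocarditis 1 to 3. Every diseased heart was above every control, and control 2 was well above the other 3 controls. The group means were 57.6 ± 69.4 (SD, n = 4) and 573 ± 182 (SD, n = 3), 9.95-fold apart. The limma log2 fold change, on the log2(normalized count + 1) scale used for all such values here, was 3.86 (SE 0.67, 95% interval 2.35 to 5.37, adjusted p = 0.00694). Without control 2 it was 4.56 (adjusted p = 2.79e-05).

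Slfn2, the short member whose loss makes resting T cells leave quiescence, was the most abundant of the 4 higher members. Its counts were 409, 1239, 699 and 543 in the controls and 2952, 2097 and 3182 in the diseased hearts. The groups did not overlap, and the lowest diseased heart lay above control 2. The control mean of 722 ± 364 (SD, n = 4) and the mean of 2744 ± 572 in diseased hearts (SD, n = 3) differed 3.80-fold. On the log2 scale the limma estimate was 2.03 (SE 0.35, 95% interval 1.23 to 2.82, adjusted p = 0.00693).

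Slfn8, a long member, had 171, 464, 248 and 143 normalized counts in the controls and 919, 1213 and 1778 in ICI-myocarditis. All 3 diseased hearts exceeded all controls, with ICI-myocarditis 3 the highest. The difference was 5.08-fold between means of 256 ± 145 (SD, n = 4) and 1303 ± 437 (SD, n = 3), or 2.44 on the log2 scale (SE 0.40, 95% interval 1.54 to 3.35, limma adjusted p = 0.00574). Slfn9, its closest relative in sequence, had 142, 265, 159 and 125 in the controls and 394, 615 and 662 in the diseased hearts. Its groups did not overlap either, and its difference was the smallest of the 4. The means of 173 ± 63.1 (SD, n = 4) and 557 ± 143 (SD, n = 3) differed 3.22-fold, or by 1.71 on the log2 scale (SE 0.31, 95% interval 1.01 to 2.41, limma adjusted p = 0.00795). Exact sequence sharing of this similar pair was small at 150 bases. No stretch of that length in Slfn8 transcripts occurred in another gene, and 1.46% of those of Slfn9 did, all in Slfn10-ps. At 50 bases the shares were 14.6% and 11.9%, so the split of reads between Slfn8, Slfn9 and Slfn10-ps is less certain than for Slfn1 and Slfn2, of which 0.61% and 4.27% were shared at that length. The calls of Slfn1, Slfn2, Slfn8 and Slfn9 were kept in all 16 alternative analyses, with highest adjusted p-values of 0.0340, 0.0335, 0.0274 and 0.0382.

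**Figure D2:**
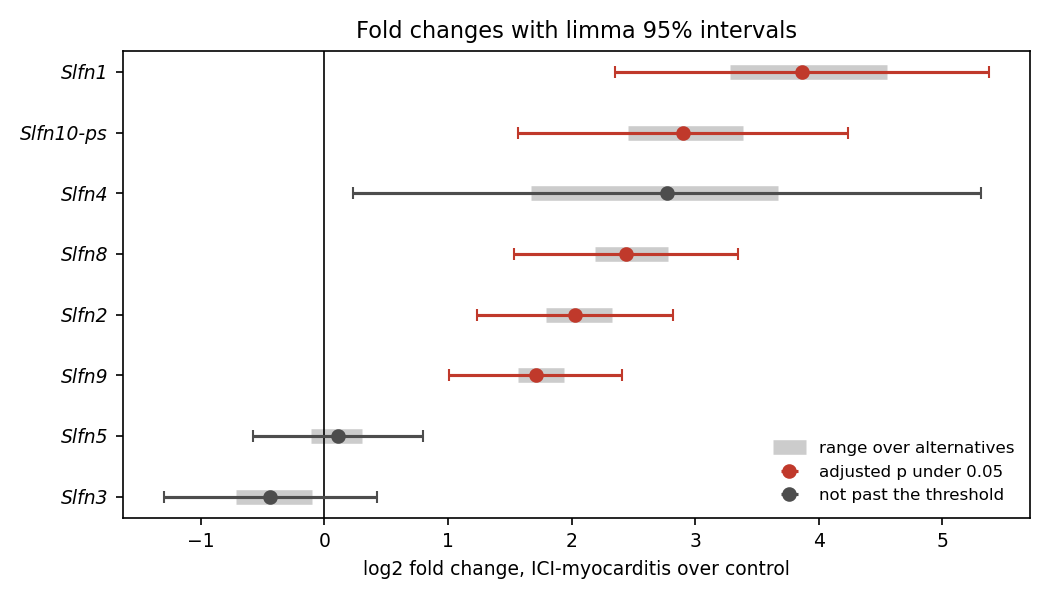
log2 fold change (ICI-myocarditis over control) of the 7 members and of Slfn10-ps in limma, with 95% intervals as thin bars and the range over the 16 alternative analyses as grey bands. The 5 red genes passed an adjusted p of 0.05, and Slfn4 has the widest interval, from 0.23 to 5.31.

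Slfn4, an intermediate member known from myeloid cells, was the least abundant. It had 0, 58.0, 12.3 and 7.51 normalized counts in the controls and 82.9, 42.0 and 64.2 in ICI-myocarditis, from 0, 47, 11 and 6 reads and 81, 58 and 84 reads. Control 2 lay within the range of the diseased hearts, and control 1 had no read, which allows up to 3.03 normalized counts (3 reads, counting error only). The log2 fold change of 2.77 had an SE of 1.13 and did not pass (limma adjusted p = 0.135). Without control 2 it was 3.67 and passed (adjusted p = 0.0175), and without control 1 it was 1.71 (adjusted p = 0.179), so the estimate rests on single control libraries. The authors' deposited table lists Slfn4 at 1.70 with an adjusted p of 0.211, and lists Slfn1, Slfn2, Slfn8 and Slfn9 at 3.32, 1.93, 2.35 and 1.69.

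Slfn3, the other intermediate member, known from T cells and from intestinal epithelial differentiation, had 283, 644, 310 and 178 in the controls and 226, 217 and 261 in the diseased hearts. The diseased hearts fell within the control range and varied little among themselves. The means were 354 ± 202 (SD, n = 4) and 234 ± 23.1 (SD, n = 3), with a log2 fold change of -0.44 (95% interval -1.30 to 0.42, limma adjusted p = 0.493). Without control 2, the highest library, it was -0.10 (adjusted p = 0.822). Slfn5, a long member whose human counterpart represses viral transcription, had 8887, 12505, 8299 and 5271 in the controls and 7761, 9918 and 9500 in ICI-myocarditis. Here too the diseased hearts lay inside the control range, which control 2 and control 4 set. The log2 fold change was 0.11 (95% interval -0.58 to 0.80, limma adjusted p = 0.851), and it was -0.11 without control 4. The interval of Slfn5 ends below the lower bound of each of the 4 higher members. The antisense gene 1700003F17Rik, which overlaps Slfn5 and covers 5.46% of its 150-base stretches, had at most 35.3 normalized counts. Whether the counting used strand is not given in the sources used here.

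The summed level of 6 endothelial markers had the same order as Slfn5 among the controls, with control 2 highest and control 4 lowest. It was 55028, 64043, 46278 and 25430 in controls 1 to 4 and 15952 to 23489 in ICI-myocarditis. In the diseased hearts 4 of the 6 were lower, beside 610 of all 15258 genes tested. The summed level of 5 dendritic cell markers had that order too, at 1146, 2223, 1050 and 682 in controls 1 to 4. Most of it in these controls came from Zbtb46, a gene of dendritic and endothelial cells, at 780, 1432, 722 and 517. In ICI-myocarditis the sum was 1595 to 2275. For Slfn3 the order differed, with control 3 above control 1. The sums of the T cell, B cell and natural killer cell markers had the order of Slfn3. In controls 1 to 4 the T cell sum was 276, 1882, 317 and 188. The B cell sum was 55.5, 211, 142 and 41.3, and the natural killer cell sum 18.1, 174, 35.7 and 12.5. An order of only 4 libraries is easily shared. The part of any of these lists in the levels of Slfn3 and Slfn5 was not tested.

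Among the 3 other rows whose names begin with Slfn, Slfn10-ps, a transcribed pseudogene between Slfn8 and Slfn2, was higher in ICI-myocarditis. It had 30.2, 93.8, 33.5 and 12.5 normalized counts in the controls and 186, 230 and 388 in the diseased hearts. The groups did not overlap, limma gave 2.90 on the log2 scale (SE 0.59, adjusted p = 0.0120), and the call was lost without ICI-myocarditis 3 (adjusted p = 0.0578). Slfn14-ps, the table's older name for the long member Slfn14, stayed between 0.76 and 7.51 and was too low to test. Slfnl1, a Schlafen-like gene on chromosome 4, had 3.75 to 23.2 and did not pass (limma log2 fold change 0.23, adjusted p = 0.834).

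Levels of different members were compared per kb of annotated exon, since Slfn5 transcripts are long and Slfn1 and Slfn2 transcripts short. The length joins all annotated exons of a gene, 6326 bases for Slfn5 and 1664 for Slfn2. Which transcripts were expressed was not examined. Mean normalized counts in ICI-myocarditis were 9060 for Slfn5 and 2744 for Slfn2, so their order per kb there rests on these lengths. In control hearts Slfn5 was by far the most abundant, at 1382 ± 469 normalized counts per kb (SD, n = 4), followed by Slfn2 at 434 ± 219, Slfn3 at 104 ± 59.1, Slfn8 at 62.7 ± 35.5, Slfn1 at 30.9 ± 37.3, Slfn9 at 29.0 ± 10.6 and Slfn4 at 4.90 ± 6.61. Each gene lay above the next in all 4 controls, except that Slfn1 was above Slfn9 in 1 of 4, control 2. Without control 2 the mean was 12.3 for Slfn1, below Slfn9 at 23.8, and 1.66 for Slfn4. In ICI-myocarditis Slfn2 led at 1649 ± 344 per kb (SD, n = 3), with Slfn5 at 1432 ± 181, and was above it in 2 of 3 hearts. They were followed by Slfn8 at 319 ± 107, Slfn1 at 307 ± 97.6, Slfn9 at 93.4 ± 24.0, Slfn3 at 68.7 ± 6.77 and Slfn4 at 15.9 ± 5.16. Slfn8 was above Slfn1 and Slfn9 above Slfn3 in 2 of 3 hearts each, and the other neighbours in this order kept it in all 3.

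Summed over the 7 members, the level per kb averaged 2047 ± 799 over the 4 controls and 3885 ± 511 over the 3 diseased hearts (SD), and control 2 with 3169 was the control nearest to the diseased hearts. Slfn5 supplied 77.6%, 62.4%, 68.1% and 65.0% of that sum in controls 1 to 4 and 33.7%, 44.3% and 33.6% in ICI-myocarditis 1 to 3. The shares did not overlap between the groups. Slfn2 supplied 21.1% ± 5.21 in controls and 42.4% ± 6.59 in the diseased hearts. The share of Slfn1 was 1.25% ± 1.01 against 7.79% ± 1.39, that of Slfn8 2.94% ± 0.54 against 8.09% ± 1.79, and that of Slfn3 4.83% ± 0.80 against 1.77% ± 0.06. These shares are descriptions, follow from the levels above and carry no test.

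**Figure D3:**
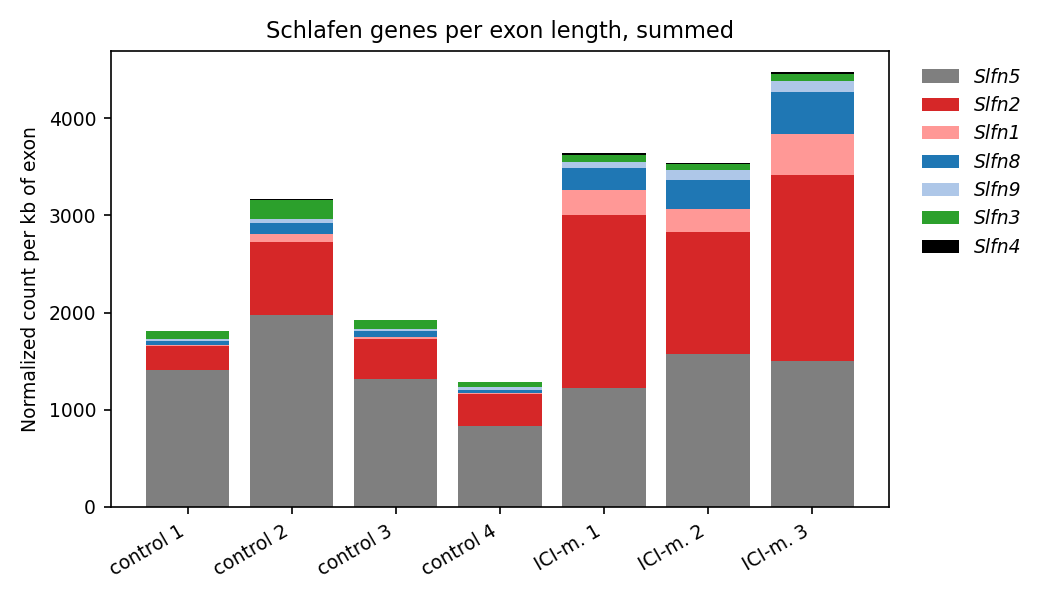
Normalized counts per kb of annotated exon, stacked over the 7 Schlafen genes, for each of the 4 control and 3 ICI-myocarditis hearts. The grey Slfn5 segment is 833 to 1977 in controls and 1227 to 1568 in ICI-myocarditis, while the segments of Slfn2, Slfn1 and Slfn8 are larger in every diseased heart.

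Whether the members differed from each other was asked within each library, as the log2 ratio of a member to Slfn2. The ratio of Slfn5 to Slfn2 was 4.44, 3.33, 3.57 and 3.28 in controls and 1.39, 2.24 and 1.58 in ICI-myocarditis, a difference of -1.92 (exact two-sided permutation p = 0.0286, adjusted p = 0.0857 over 6 ratios). Every diseased heart lay below every control. The ratio of Slfn3 to Slfn2 was likewise lower in every diseased heart, with means of -1.06 and -3.52, a difference of -2.46 and the same p-values. With 35 possible assignments, 0.0286 is the smallest p the exact test can give, and no ratio passed the adjustment. The ratio of Slfn1 to Slfn2 was 1.84 higher in ICI-myocarditis (exact permutation p = 0.0571), with control 2 at -2.93 close to the lowest diseased heart at -2.60. For Slfn8 the ratio differed by 0.42 (exact permutation p = 0.229), for Slfn9 by -0.32 (exact permutation p = 0.371) and for Slfn4 by 0.75 (exact permutation p = 0.629), and in these 3 the groups overlapped.

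Set against Ptprc instead, the pan-leukocyte gene of the same libraries, 1 of the 4 higher members had a higher mean ratio in the diseased hearts and 3 a lower one. In limma Ptprc had a log2 fold change of 3.14 (SE 0.56, adjusted p = 0.00728). The log2 ratio of Slfn2 to Ptprc was 1.11 lower in ICI-myocarditis, at -0.24, -1.21, -0.66 and 0.07 in controls and -1.44, -1.71 and -1.72 in the diseased hearts (exact two-sided permutation p = 0.0571, adjusted p = 0.0800 over 7 ratios). The ratio of Slfn9 differed by -1.43 with the same p-values, and that of Slfn8 by -0.70 (exact permutation p = 0.114, adjusted 0.133). Slfn1 was the member whose ratio lay higher, by 0.72, at -4.66, -4.14, -5.32 and -4.39 in controls and -4.04, -3.93 and -3.75 in ICI-myocarditis (exact permutation p = 0.0571, adjusted 0.0800). The ratios of Slfn3 and Slfn5 were lower by 3.58 and 3.03 (both exact permutation p = 0.0286, adjusted 0.0800). The ratio of Slfn4 differed by -0.37 (exact permutation p = 0.771). None of the 7 ratios passed the adjustment, and 2 had an unadjusted p under 0.05.

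**Figure D4:**
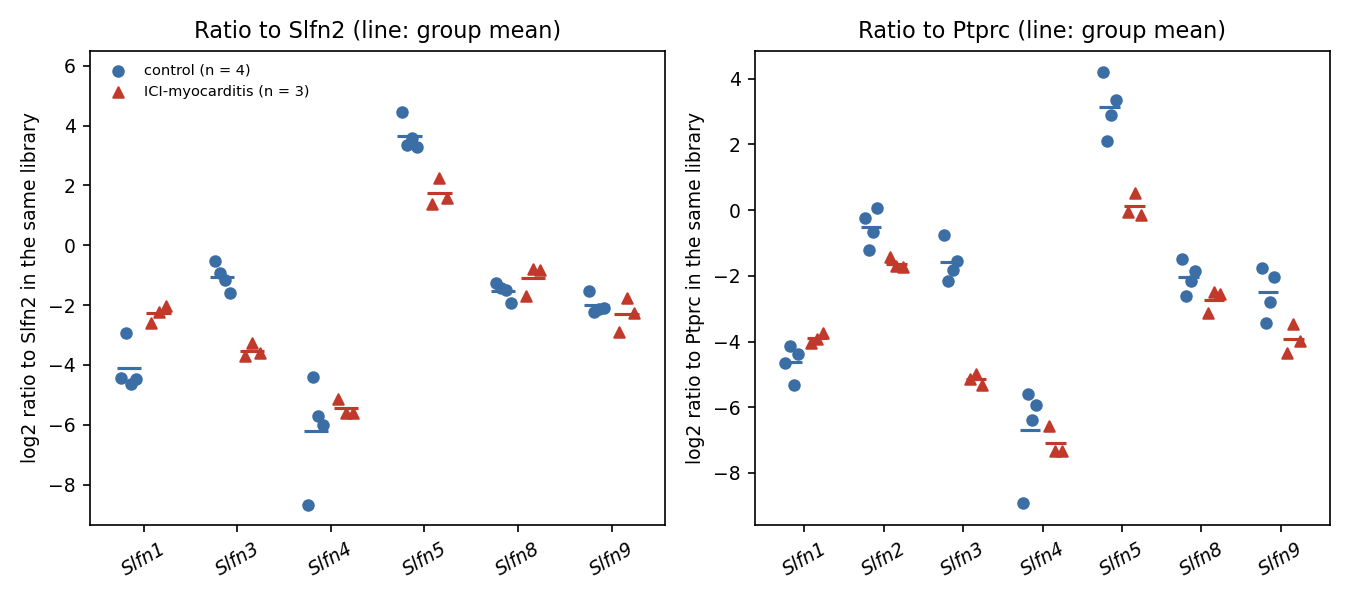
log2 ratio of each Schlafen gene to Slfn2 (left) and to Ptprc (right) in the same library, for 4 control hearts (circles) and 3 ICI-myocarditis hearts (triangles), with lines at group means. Slfn3 and Slfn5 are lower in every diseased heart in both panels, and Slfn1 to Ptprc is higher in every diseased heart by a smaller margin.

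Markers of T cells and of macrophages and monocytes moved with the higher members, and the other immune lists did so in part or not at all. Counts of higher markers are to be read against the 11.7% of all genes tested that were higher. All 9 T cell markers were higher in ICI-myocarditis. Of 8 macrophage and monocyte markers tested, 7 were higher, with a summed level of 11454 to 16748 in controls and 44071 to 67613 in the diseased hearts. Of 3 natural killer cell markers tested 1 was higher, with sums of 12.5 to 174 and 224 to 273, and Klra8 was at 0 in every library. None of 4 B cell markers passed, with sums of 41.3 to 211 in controls and 53.2 to 85.5 in ICI-myocarditis, nor did either of 2 neutrophil markers tested, with sums of 10.1 to 98.8 and 21.7 to 61.1. Of 5 dendritic cell markers 2 were higher, with sums of 682 to 2223 and 1595 to 2275. The fibroblast and cardiomyocyte lists held few or no calls. Of 5 fibroblast markers 1 was higher, and their sums did not overlap (22863 to 39064 in controls, 41424 to 78707 in ICI-myocarditis). The higher marker, Col1a1, made up a large part of these sums, at 7155.3 to 19786.5 in controls and 23073.2 to 50515.4 in ICI-myocarditis. Tcf21 was also apart but did not pass, and Pdgfra, Dcn and Lum overlapped between the groups. The sums therefore do not show that the fibroblast list as a whole separated the groups. None of 8 cardiomyocyte markers passed, with a median log2 fold change of -0.72. The part of these cell types in the Schlafen levels was not tested.

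The interferon pathway, which acts on Schlafen genes, was read from a list of 18 genes. Of the 17 that could be tested, 9 were higher in ICI-myocarditis, none was lower and 8 did not pass, against 11.7% of all genes higher. The median log2 fold change was 0.82. In 12 of the 17 every diseased heart lay above every control, beside 17.3% of all genes tested. The count of higher genes was between 6 and 12 when single libraries were left out, and 12 without control 2.

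Among the ligands, Ifng, which encodes interferon gamma of activated T and natural killer cells, had 2.02, 55.5, 4.47 and 0 normalized counts in controls and 244, 283 and 583 in ICI-myocarditis. It was near the floor in 3 controls, intermediate in control 2 and high in each diseased heart (limma log2 fold change 5.96, SE 1.14, adjusted p = 0.00935, 7.08 without control 2 and 5.14 without control 4). Ifnb1, which encodes interferon beta, had at most 1.45 and was not tested. The receptor genes did not pass: log2 fold changes were 0.58 for Ifnar1, 0.52 for Ifnar2, 0.31 for Ifngr1 and -0.47 for Ifngr2, although every diseased heart was above every control for Ifnar1 and Ifnar2 (limma adjusted p = 0.0841 and 0.0824). Of the receptor-bound kinases Jak2 was higher by 0.82 (limma adjusted p = 0.0359, kept in 8 of 16 alternatives and lost without any 1 of controls 1, 3 and 4 or of ICI-myocarditis 2 and 3, up to 0.157). Jak1 and Tyk2 did not pass (-0.02 and 0.80). Without control 2, Ifnar1 and Tyk2 passed (adjusted p = 0.0386 and 0.00946).

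Stat2, a transcription factor of the type I interferon response, was higher by 1.67 (limma adjusted p = 0.0240, kept in 10 of 16 alternatives), and Irf9, which joins it in a complex, had 0.76 and did not pass (adjusted p = 0.0621, and 0.00861 without control 2). The interferon regulatory factors Irf1, Irf7 and Irf8 were higher by 2.29, 2.47 and 3.04 (adjusted p = 0.0123, 0.00694 and 0.00504), of which Irf1 lost its call without ICI-myocarditis 3 (adjusted p = 0.0552). Irf3, which acts upstream of interferon beta, had -0.06 and did not pass. Of the feedback inhibitors, Usp18 was higher by 1.97 (adjusted p = 0.0190, kept in 12 of 16 alternatives). Stat2 and Usp18 lost their calls without any 1 of control 1, control 3, ICI-myocarditis 1 and ICI-myocarditis 2, and Stat2 also without ICI-myocarditis 3, with adjusted p-values up to 0.0786 and 0.0655. Socs1, the inhibitor of JAK kinases, was higher by 4.55 (adjusted p = 0.00363), from 71.6 ± 76.3 (SD, n = 4) to 1218 ± 234 (SD, n = 3), and by 5.17 without control 2.

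Genes known for keeping lymphocytes quiescent, the setting in which Slfn2 is best known, were read from a list of 12. Of these 4 were higher, none was lower and 8 did not pass, beside 11.7% of all genes higher. The median log2 fold change was 0.05. The count was 2 without control 1, control 3, control 4, ICI-myocarditis 2 or ICI-myocarditis 3. Il7r, the interleukin 7 receptor of resting T cells, had 16.1, 43.2, 21.2 and 3.75 in controls and 235, 139 and 410 in ICI-myocarditis, a log2 fold change of 3.83 (limma adjusted p = 0.00834), and of 3.22 without control 4. Runx1, a transcription factor of blood cells, was higher by 2.11 (adjusted p = 0.00897). The antiproliferative gene Btg1 was higher by 1.19 (adjusted p = 0.0289), a call kept in 10 of 16 alternatives. Without any 1 of the 5 libraries just named it did not pass (adjusted p up to 0.117). The transcription factors Foxo1, Foxp1, Klf2 and Klf4 had -0.17, 0.26, -0.22 and -0.54, the antiproliferative genes Tob1 and Btg2 -0.45 and 0.49, and the growth-restraining Tsc1 and Tsc2 -0.30 and -0.64. None of these 8 passed, although Tsc2 did so without control 2 (adjusted p = 0.0362).

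The cluster spans chr11:82951349-83286726, which is 335.4 kb of GRCm38, in the order Slfn5, Slfn9, Slfn8, Slfn10-ps, Slfn2, Slfn1, Slfn4, Slfn3 and Slfn14. The 5 genes of the middle stretch from Slfn9 to Slfn1, Slfn10-ps included, were all higher, and Slfn5 at one end and Slfn4 and Slfn3 towards the other did not pass. Of the 22 other RefSeq genes considered, namely 6 protein-coding genes on each side and 10 inside the cluster, 13 had a row in the table and 11 were tested. Their median log2 fold change was -0.08, and 2 of the 11 passed, a share near the 15.7% of all genes. One was higher, AI662270, a long noncoding RNA gene inside the cluster at chr11:83223576-83226584, after Slfn3. It had 32.3, 191, 71.5 and 58.8 normalized counts in controls and 548, 383 and 629 in ICI-myocarditis, with no overlap, and limma gave 2.81 on the log2 scale (SE 0.52, adjusted p = 0.00837, kept in 16 of 16 alternatives). One was lower, Unc45b, a myosin chaperone of striated muscle next to Slfn5. Its counts were 7823, 6204, 6938 and 9255 in controls and 4074, 4635 and 2343 in the diseased hearts, a log2 fold change of -1.08 (limma adjusted p = 0.0315, kept in 10 of 16 alternatives). The count of 2 was 1 without control 1, control 3, control 4, ICI-myocarditis 1 or ICI-myocarditis 3, when Unc45b did not pass (adjusted p up to 0.132), and 3 without control 2, when Rasl10b passed (0.0403). The flanking genes Lig3, Rffl, Rad51d, Nle1, Ap2b1, Rasl10b, 1700020L24Rik and Mmp28 did not pass, with log2 fold changes from -0.90 (Rasl10b) to 0.43 (Ap2b1).

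**Figure D5:**
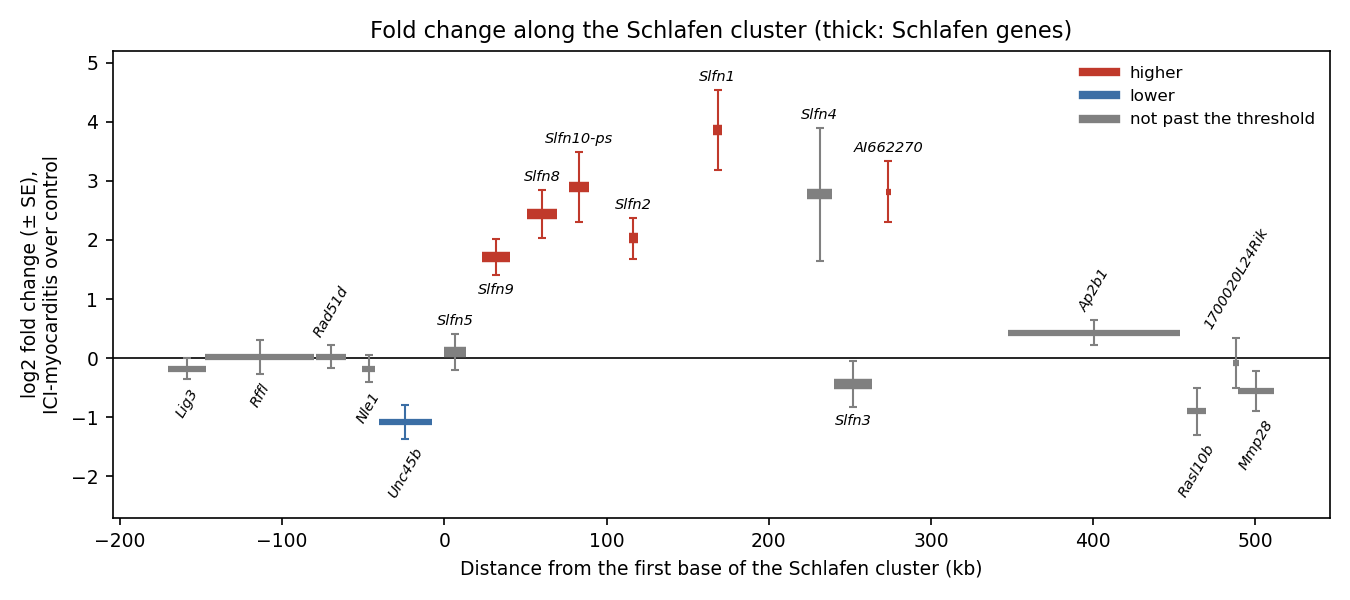
log2 fold change (ICI-myocarditis over control, with SE) against distance in kb from the first base of the Schlafen cluster, for Schlafen genes (thick bars as long as the gene) and 10 of the 11 tested neighbours (thin bars). The red genes from Slfn9 to Slfn1 and AI662270 were higher, Unc45b at -1.08 was lower, and the grey genes did not pass.

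The genes outside the family whose profile over the 7 libraries was nearest to that of each member were found by the root-mean-square difference of centred log2 profiles, where 0 means the same pattern. Nearest to Slfn1 were Cyp4f18 (0.18), which encodes a leukotriene hydroxylase of leukocytes, Il18rap (0.19), a chain of the interleukin 18 receptor, and Hk3 (0.20), the hexokinase of myeloid cells. Nearest to Slfn2 were the co-stimulatory ligand Cd86 (0.12), the histone gene Hist2h3b (0.13) and the adhesion molecule Alcam (0.13). Slfn8 lay nearest to the phosphatase gene Ubash3b (0.15), the chemokine Cxcl16 (0.15) and the thromboxane synthase Tbxas1 (0.15). Slfn9 lay nearest to Gprin3 (0.16), the replication licensing factor Cdt1 (0.18) and the condensin subunit Ncapg2 (0.18). The profiles named for these 4 members were all higher in ICI-myocarditis, as the measure of likeness entails. Their calls held in all 16 alternatives except for Gprin3 (12 of 16, adjusted p up to 0.115), Ncapg2 (15 of 16, up to 0.0643) and Il18rap (15 of 16, up to 0.0511). All 3 lost the call without ICI-myocarditis 3, and Gprin3 also without control 1, control 3 or ICI-myocarditis 2.

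Among the members that did not pass, Slfn3 lay nearest to the nucleoside transporter Slc28a2 (0.08), the dynamin gene Dnm3 (0.12) and Zbtb46 (0.14), a transcription factor of dendritic and endothelial cells. Slfn5 lay nearest to Crebzf (0.08), the repair gene Ercc6 (0.11) and the splicing regulator gene Sfswap (0.11). None of these 6 passed the test between groups. Slfn4 had no near neighbour, since its closest were Cenph (0.70), Sh2d1a (0.74) and Klrc2 (0.75). These likenesses are over 7 libraries of 2 groups and are descriptions.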

How the data were processed

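RNA of mouse cardiac ventricle was sequenced as paired-end reads from a stranded total RNA kit, per the labels. The submitters' processing notes name STAR 2.7.3 and the builds GRCm38 and mm10, and the counting program is not given in the sources used here. The deposited values are a normalized signal per gene and library: read counts that the authors divided by a size factor, since all values (100%) were whole multiples of 1 step per library within 0.001. This sign is weaker for control 1, whose step of 1.01 is near 1. The authors' deposited table also holds their log2 fold changes, test statistics (a score) and p-values, per the file headers. Genes that reached 10 normalized counts in 3 or more of the 7 libraries were tested with limma 3.58.1 (R 4.3.3, trended and robust) on log2(value + 1), adjusted by Benjamini-Hochberg at 0.05, and scripts were tested on simulated data. Ratios within libraries were tested by exact two-sided permutation. Levels per kb used GENCODE exons of GRCm38, and promoters were matched to RefSeq by symbol, with an entry for each of the 7 members. Alternatives were other pseudocounts (0.5 and 5), no filter or one of 50, library size scaling, edgeR 4.0.16 and DESeq2 1.42.0 on the recovered reads, limma without trend and robust, a replicate block and leaving out each library. No sample was left out of the main analysis, and 27 rows whose gene names had become dates were kept. The genes named are all members, the other Slfn rows, the genes of the interferon and quiescence lists, the neighbours, Ptprc, Ctla4, Pdcd1 and the 3 nearest profiles per member, and the antisense gene 1700003F17Rik was added after its values were seen. A few genes of the lists are counted but not reported singly here. Members and lists were chosen with earlier results of these data known.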

Additional observations from a re-analysis of the deposited data

Results flagged for a closer look

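Of 73 results examined in the 4 controls, 3 had 1 library farther from the rest than Dixon's 95% critical value allows, measured as the gap over the range of log2(value + 1), where chance gives about 1 group in 20. Control 2 was the high library in each, for Irf7 (0.922), Hk3 (0.865) and Cdt1 (0.888). None of the 7 Schlafen genes passed that limit on the log2 scale, although control 2 was their highest control and Slfn1 came close (0.826). On the normalized counts themselves the gap of Slfn1 was 0.940 of its range, past the limit.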

How the results depend on the processing

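Under the alternatives 4 members were called, and 5 without control 2, when Slfn4 was added. The total over all genes was 986 to 3340 when single libraries were left out, 2131 with edgeR and 3441 with DESeq2, which called 62.8% of them higher against 74.6% in limma. The quiescence list then held 2 to 5 and the cluster neighbours 1 to 3 calls. Scaling by library size moved the median log2 fold change of all genes from -0.02 to 0.13 and gave 1981 genes. Same-numbered libraries did not deviate together (correlations of -0.27, -0.21 and -0.08), and differently numbered ones ranged from -0.48 to 0.45. With deviations centred within such small groups, these values cannot decide whether the numbers pair the libraries. A replicate block, which drops control 4, gave 4 members, 1780 genes in all and 1 cluster neighbour. The signs that turned belong to genes that had not passed, and for genes outside the family these readings were added after the data were seen. Under the block the log2 fold change was -0.112 for Slfn5, -0.259 for Slfnl1, 0.011 for Jak1, -0.155 for Rffl, -0.077 for Crebzf and -0.166 for Ercc6. Library size scaling gave 0.136 for Jak1, 0.102 for Irf3, 0.078 for 1700020L24Rik and 0.142 for Sfswap. On recovered reads edgeR gave -0.010 for Slfnl1, -0.035 for Rffl and -0.013 for Ercc6, and DESeq2 gave -0.013 for Rffl. With single libraries left out the values ran from -0.112 to 0.304 for Slfn5, -0.259 to 0.524 for Slfnl1, -0.096 to 0.020 for Jak1, -0.144 to 0.114 for Irf3 and -0.543 to 0.132 for Klf2. They ran from -0.155 to 0.224 for Rffl, -0.033 to 0.123 for Rad51d, -0.333 to 0.252 for 1700020L24Rik, -0.077 to 0.335 for Crebzf, -0.166 to 0.310 for Ercc6 and -0.227 to 0.155 for Sfswap. The ratio of Slfn4 differed by -0.081 to 1.348 against Slfn2 and by -1.103 to 0.001 against Ptprc. The cause of these turns was not tested. The 0 to 84 reads of Slfn4 limit its precision.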
